A study of Mus musculus with 6 samples.

Results

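The genes described here are 9 genes of zinc buffering and zinc movement: the metallothioneins Mt1, Mt2 and Mt3, the zinc-sensing transcription factor Mtf1, the zinc exporters Slc30a1 and Slc30a2, and the zinc importers Slc39a8, Slc39a10 and Slc39a14. They were taken by symbol from 19938 genes with a row of their own on the array. Rows were selected on their mean value over both genotypes, the brightest row standing for a gene, but each of the 9 genes had exactly 1 row. The genes themselves were chosen with earlier results of the same genotype comparison known, so the values below describe them and are not independent support for any change. Expression was measured with Affymetrix Mouse Gene 1.0 ST arrays in hearts of 6 male FVB mice, 1 heart per array, all operated on at 8 weeks of age by transverse aortic constriction (TAC), which narrows the aorta and loads the left ventricle with pressure. Hearts were taken after 14 weeks. The first group was 3 wild-type mice. The second was 3 littermates with a heart-specific, inducible transgene for the adenosine A2a receptor (A2a-R transgenic). The sources used here do not name the promoter of the transgene or the induction schedule. Unoperated hearts were not analysed here, so the effects of the transgene and of its interaction with the surgery cannot be told apart.

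Metallothioneins are small cysteine-rich proteins that bind zinc and copper and react with oxidants. Free zinc in the cell activates Mtf1, which binds metal response elements in the promoters of metallothionein genes and of Slc30a1. Exporters of the Slc30a family move zinc out of the cytosol, importers of the Slc39a family move it in, and metallothionein transcription also responds to glucocorticoids and inflammatory cytokines.

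The promoter windows of 4 of the genes are shown because Mt1 and Mt2 differed between the genotypes while their neighbour Mt3 and the Mtf1 target Slc30a1 did not pass the test. Each window is 300 bases of RefSeq sequence in build GRCm38.p6, from 250 bases before to 50 bases after the annotated start, on the + strand, at chr8:94178839-94179138 for Mt1, chr8:94172368-94172667 for Mt2, chr8:94152357-94152656 for Mt3 and chr1:191906531-191906830 for Slc30a1. Capitals mark matches to the core of the metal response element, searched as TGCACNC and TGCGCNC on both strands.
Mt1: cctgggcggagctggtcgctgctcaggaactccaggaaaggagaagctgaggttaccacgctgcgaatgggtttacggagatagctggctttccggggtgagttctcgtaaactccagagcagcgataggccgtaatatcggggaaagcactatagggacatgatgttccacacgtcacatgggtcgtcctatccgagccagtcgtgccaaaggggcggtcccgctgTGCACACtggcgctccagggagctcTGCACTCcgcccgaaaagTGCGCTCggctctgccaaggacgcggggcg
Mt2: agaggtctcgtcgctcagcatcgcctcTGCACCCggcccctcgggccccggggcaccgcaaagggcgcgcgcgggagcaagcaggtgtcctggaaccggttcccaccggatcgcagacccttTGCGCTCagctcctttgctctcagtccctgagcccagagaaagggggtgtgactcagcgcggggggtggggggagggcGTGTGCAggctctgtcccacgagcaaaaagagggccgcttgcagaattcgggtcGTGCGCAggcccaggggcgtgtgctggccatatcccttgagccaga
Mt3: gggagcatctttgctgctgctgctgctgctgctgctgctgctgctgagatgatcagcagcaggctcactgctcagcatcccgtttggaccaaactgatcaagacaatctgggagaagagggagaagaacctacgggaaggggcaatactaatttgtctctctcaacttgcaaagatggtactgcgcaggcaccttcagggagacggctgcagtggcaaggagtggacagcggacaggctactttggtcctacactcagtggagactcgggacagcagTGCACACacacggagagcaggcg
Slc30a1: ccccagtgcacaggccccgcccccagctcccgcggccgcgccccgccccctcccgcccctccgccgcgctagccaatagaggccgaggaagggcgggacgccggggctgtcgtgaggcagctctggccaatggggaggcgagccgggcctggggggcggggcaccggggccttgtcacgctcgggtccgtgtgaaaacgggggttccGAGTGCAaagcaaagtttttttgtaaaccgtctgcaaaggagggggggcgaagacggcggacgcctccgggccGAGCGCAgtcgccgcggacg
The Mt1 window held 3 matches, all on the strand of the gene, beginning 23 bases before the annotated start and 2 and 20 bases after it. The Mt2 window held 4 matches, beginning 223, 128 and 50 bases before the start and 4 bases after it, with the last 2 on the opposite strand. Slc30a1 and Slc30a2 had 2 matches each, Mt3 and Mt4 had 1 each, 1 of 2 annotated starts of Slc39a8 had 1, and the windows of Mtf1 and Slc39a10 had 0. Of 32851 RefSeq promoter windows of this length, 25.7% held at least 1 match, 1.97% at least 3 and 0.517% at least 4. A window was found for 8 of the 9 genes; Slc39a14 was the exception. Motifs of other inducers were sought in the same windows: TGACNNNGC, the core of the antioxidant response element, occurred in Mt2, Slc30a1 and 1 start of Slc39a8, and in 12.4% of all windows. TTCNNNGAA, a STAT motif, occurred in 1 start of Slc39a10 and in 8.3% of all windows. The counts depend on the annotated start that places each window, and matches outside the windows were not counted. These matches are letters in a window and say nothing about binding in these hearts.

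**Figure D1:**
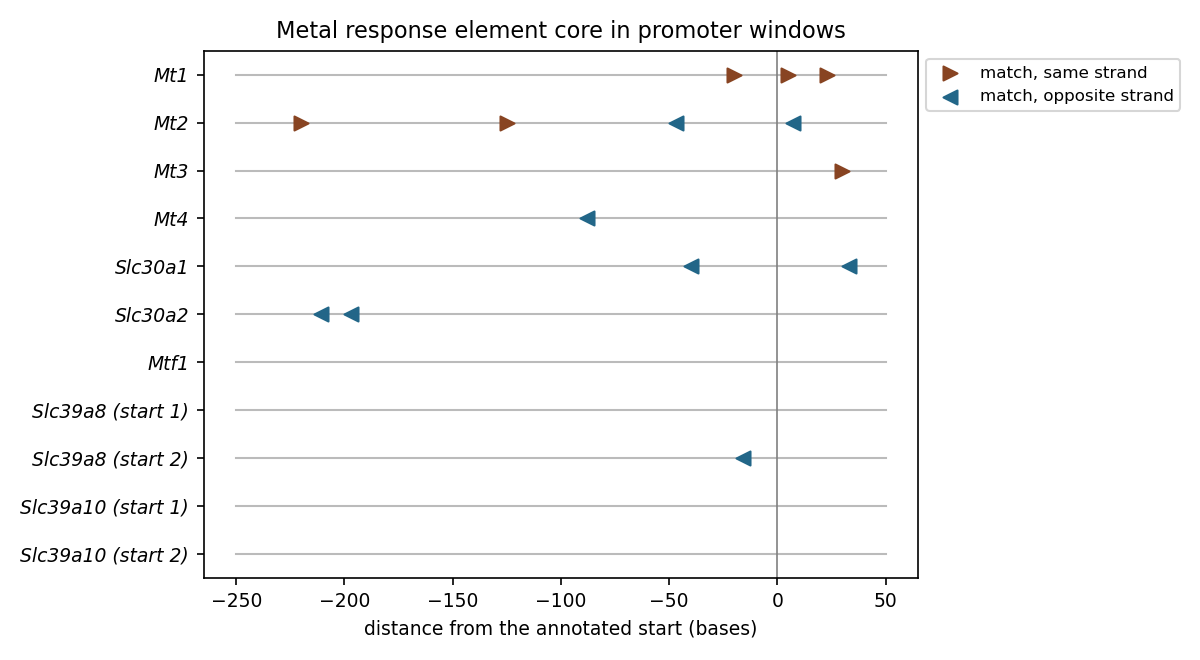
Matches to the metal response element core in the promoter windows, plotted by distance in bases from the annotated start (0); each grey line is a window, and arrowheads show matches on the strand of the gene or the opposite strand. Mt1 and Mt2 have 3 and 4 matches, the other windows 0 to 2.

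Mt1 and Mt2, the metallothioneins of most tissues, rose in the transgenic hearts. Values are log2 expression, so a difference of 1 is a doubling. Mt1 (transcript cluster 10574027) stood at 10.77, 10.98 and 10.99 in the 3 wild-type hearts and at 11.66, 11.71 and 11.62 in the 3 transgenic hearts. The lowest transgenic heart was above the highest wild-type heart. The group means were 10.91 ± 0.12 and 11.66 ± 0.05 (SD, n = 3 each), a log2 change of 0.75 ± 0.07 (SE). This is 1.68-fold, with a 95% interval of 1.49 to 1.89, and a limma adjusted p of 0.00486 over all 21789 rows tested.

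Mt2 (transcript cluster 10574023) stood at 11.61, 11.89 and 12.05 in the wild-type hearts and at 12.93, 12.86 and 12.80 in the transgenic hearts. Again the groups did not overlap. The means were 11.85 ± 0.22 and 12.86 ± 0.07 (SD, n = 3 each), a log2 change of 1.01 ± 0.11 (SE), or 2.02-fold with a 95% interval of 1.70 to 2.39 (limma adjusted p = 0.0056). For both genes the wild-type hearts spread more widely than the transgenic hearts, and wild-type replicate 1 was the lowest heart of all. Without that heart the log2 change was 0.68 for Mt1 and 0.89 for Mt2. Both calls held in each of the 6 fits that left out an array, where the limma adjusted p ran from 0.0152 to 0.0273 for Mt1 and from 0.0111 to 0.0354 for Mt2. In whole hearts, more cells of a type and more RNA per cell cannot be told apart.

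The log2 change of Mt2 was larger than that of Mt1 by 0.26. Taken within each array, the difference Mt2 minus Mt1 was 0.84, 0.91 and 1.06 in the wild-type hearts and 1.27, 1.15 and 1.18 in the transgenic hearts. The transgenic values all lay above the wild-type values, with means of 1.20 ± 0.06 and 0.94 ± 0.11 (SD, n = 3 each). An exact two-sided permutation test gave p = 0.1, the smallest value that 3 hearts against 3 allow. Mt1 and Mt2 have similar coding sequences, and how far the probes of either detect the transcript of the other was not tested.

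Mt3, the metallothionein best known from brain, had the same mean in both groups. Its values were 8.28, 8.24 and 8.21 in wild-type hearts and 8.16, 8.29 and 8.28 in transgenic hearts. The groups overlapped, and the 95% interval of the log2 change ran from -0.14 to 0.14. Mt4, the metallothionein of stratified epithelia, differed by 0.04 ± 0.08 (SE). In RefSeq the 4 metallothionein genes follow each other on chromosome 8 in the order Mt4, Mt3, Mt2, Mt1, with Bbs2 before and Nup93 after them. The flanking genes differed by 0.00 ± 0.06 and 0.05 ± 0.06 (SE) on the log2 scale, so within this stretch of 6 genes the 2 that passed the test were Mt1 and Mt2.

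Mtf1, the zinc sensor itself, did not pass. It stood at 8.31, 8.38 and 8.39 in wild-type hearts and at 8.34, 8.37 and 8.30 in transgenic hearts, a log2 change of -0.02 with a 95% interval of -0.15 to 0.11. The 6 values lay within a narrow range and the groups overlapped. The array measures transcript level and gives no value for the activity of the protein.

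Neither exporter passed the test. Slc30a1, the plasma membrane zinc exporter that Mtf1 also induces, stood at 8.12, 8.21 and 8.30 in wild-type hearts and at 7.95, 8.18 and 8.22 in transgenic hearts. Its log2 change was -0.09 ± 0.09 (SE), with a 95% interval of -0.29 to 0.11 that lies below the interval of either Mt1 or Mt2. Slc30a2, a vesicular exporter of secretory tissues, stood at 6.25, 6.13 and 6.30 in wild-type hearts and at 6.21, 6.13 and 6.29 in transgenic hearts. The change was -0.02, with a 95% interval of -0.18 to 0.15, in a row that is among the dimmest 40% tested.

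Among the importers, 2 had groups that did not overlap, with higher transgenic values, as 7.73% of all tested rows had. None of the importers passed the test. Slc39a8, an importer of zinc, manganese and iron that inflammatory signals induce, stood at 6.03, 5.80 and 5.93 in wild-type hearts and at 6.07, 6.10 and 6.15 in transgenic hearts. The change was 0.19 ± 0.07 (SE, limma adjusted p = 0.28), again in a dim row. Slc39a14, an importer of zinc, manganese and non-transferrin iron that responds to interleukin 6, stood at 9.10, 9.01 and 9.13 in wild-type and at 9.17, 9.30 and 9.16 in transgenic hearts. Its change was 0.13 ± 0.07 (SE, limma adjusted p = 0.411), and the gap between the groups was small beside the spread within them.

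Slc39a10, a plasma membrane importer whose transcription Mtf1 represses when zinc is high, stood at 7.92, 7.75 and 7.84 in wild-type hearts and at 7.46, 7.86 and 7.89 in transgenic hearts. The mean change was -0.10 ± 0.12 (SE), and transgenic replicate 1 decided its sign, since without that heart the change was 0.04. The same heart was the lowest for Slc30a1, whose change without it was -0.01. For Mt1 that heart was the middle of the 3 transgenic hearts, and for Mt2 the highest.

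**Figure D2:**
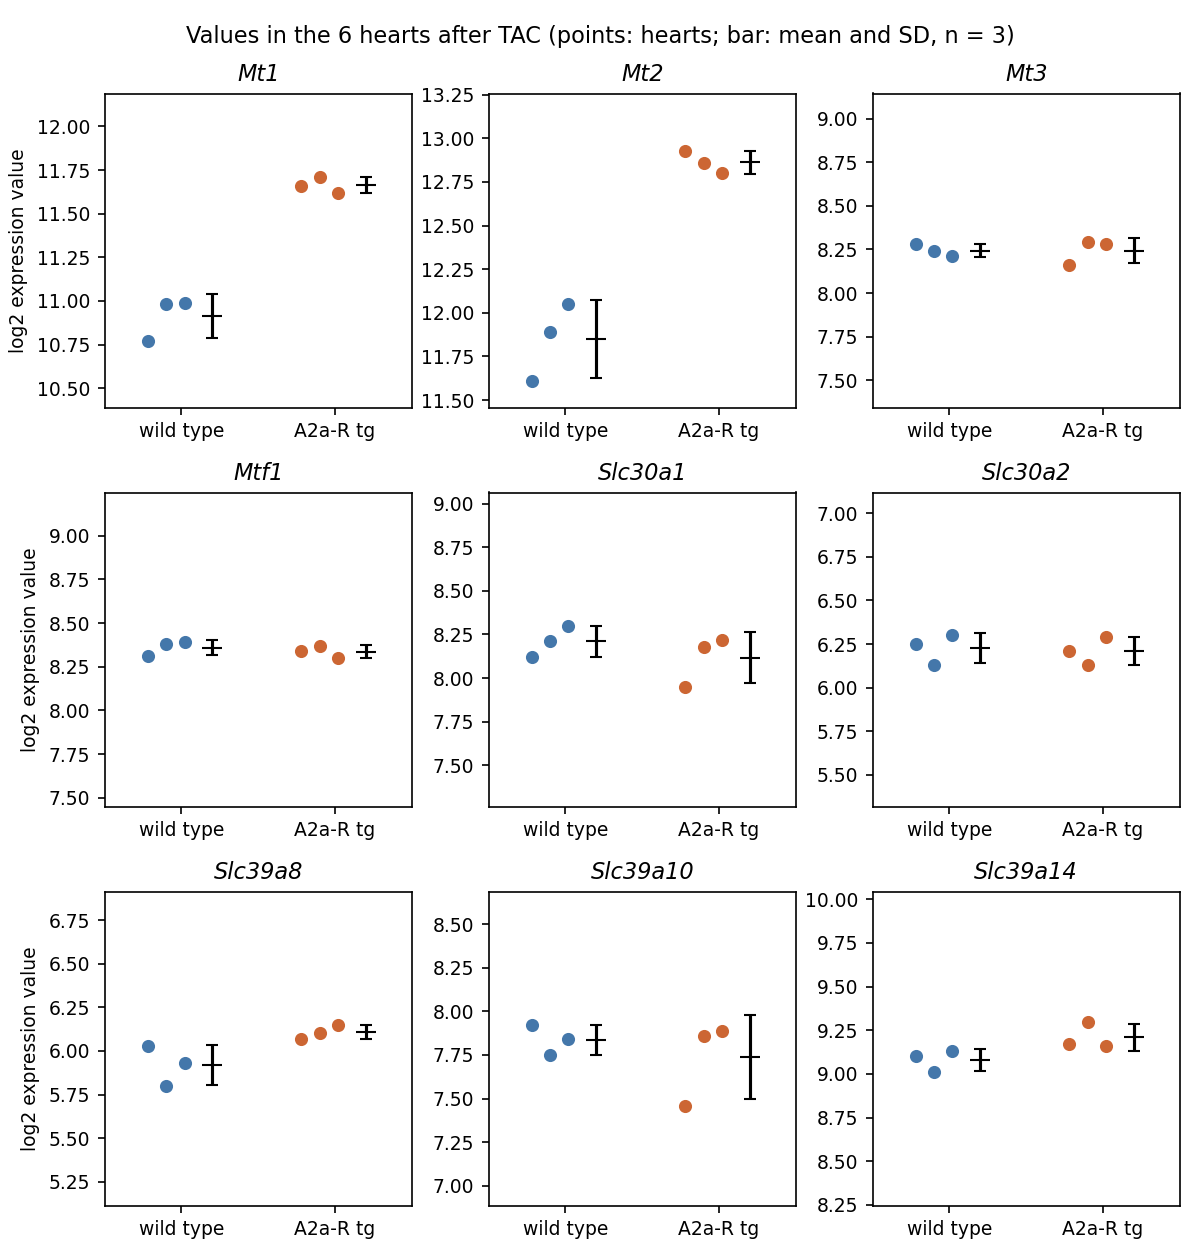
Log2 expression of the 9 genes in each of the 6 hearts, with wild-type and A2a-R transgenic hearts side by side; points are hearts, the bars beside them the mean and SD (n = 3), and every panel spans the same log2 range around the mean of its gene. Mt1 and Mt2 separate by genotype by 0.75 and 1.01, while the other 7 genes differ by 0.19 or less.

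Of the 9 genes, 2 rose, 0 fell and 7 did not pass, at a limma adjusted p below 0.05. Over all tested rows 0.959% were called, 0.519% higher and 0.441% lower. The groups did not overlap in 4 of the 9 genes, all with higher transgenic values; among all rows 20.3% did not overlap, 7.73% with higher transgenic values. Because the genes were chosen with results known, nothing is read from these shares. The median log2 change of the 9 genes was 0.00, beside -0.01 over all tested rows.

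The rest of the zinc transporter families gave 0 calls among 20 measured genes in limma. At an unadjusted p below 0.05 there were 3 of 9 in the first list below and 1 of 11 in the second, where 14.8% of all rows passed, 6.27% higher and 8.51% lower. Among the 8 other exporters and Mt4 the log2 changes ran from -0.23 to 0.19, with a median of -0.03; 4 were above 0 and 5 below. The smallest p-values belonged to Slc30a4 at -0.23 ± 0.08 (SE), Slc30a8 at 0.19 ± 0.07 and Slc30a5 at -0.16 ± 0.06, with limma adjusted p of 0.251, 0.278 and 0.299. Slc30a5 carries zinc into the secretory pathway, and Slc30a8 is the exporter of insulin granules.

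The 11 other importers ran from -0.14 to 0.16, with a median of 0.03; 9 were above 0 and 2 below. Their summed log2 values lay between 82.59 and 82.75 in wild-type and between 82.98 and 83.11 in transgenic hearts, so the groups did not overlap. Slc39a5 had the smallest p at 0.16 ± 0.06 (SE, limma adjusted p = 0.239), followed by Slc39a7, which releases zinc from the endoplasmic reticulum, at -0.14 ± 0.07 and Slc39a1 at 0.12 ± 0.06. The upper end of the 95% interval stayed below the lower end of that of Mt1 for each of the 20 genes.

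**Figure D3:**
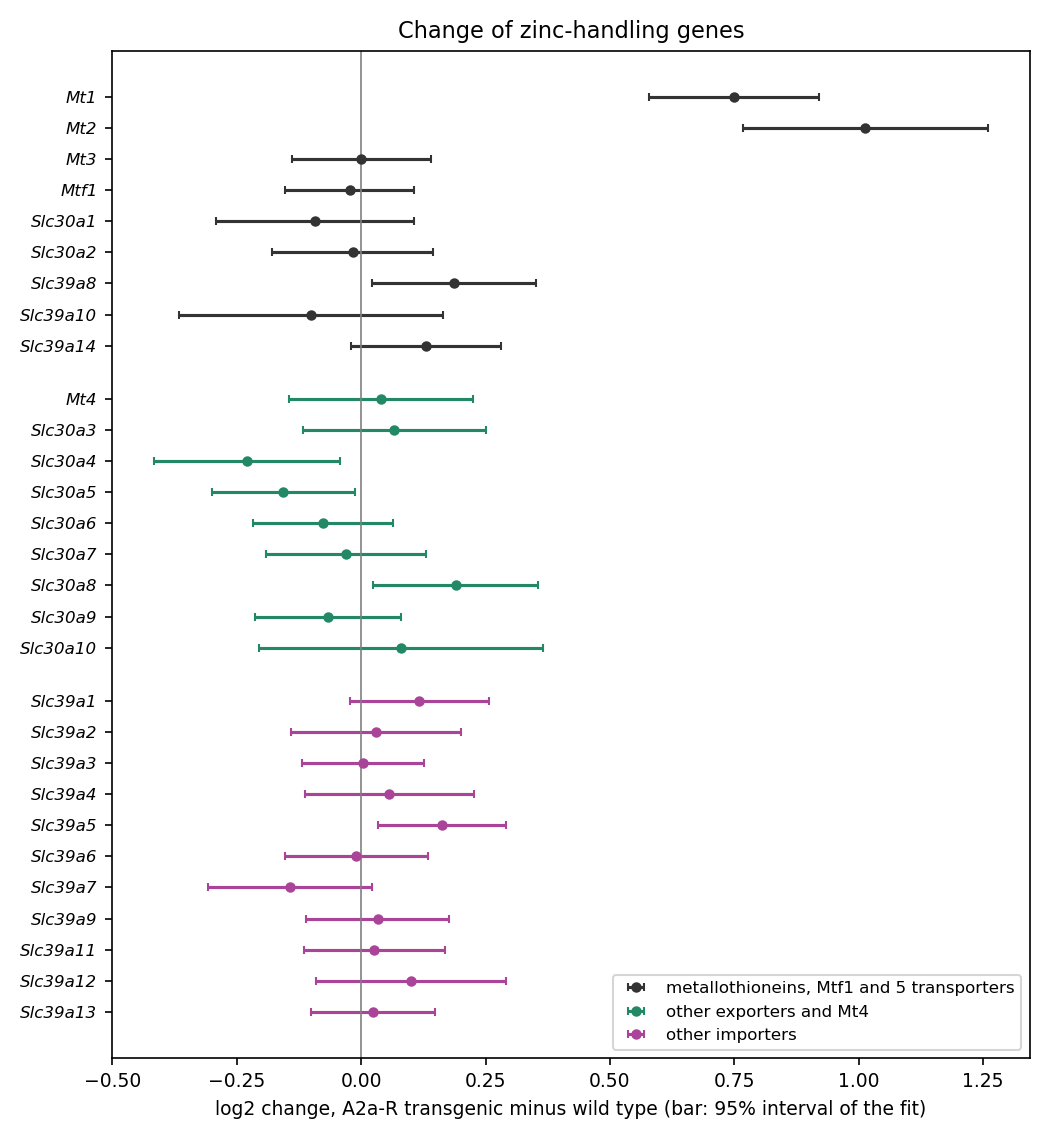
Log2 change (A2a-R transgenic minus wild type) of 29 zinc-handling genes, with points for the estimates and bars for the 95% intervals of the limma fit. The intervals of Mt1 and Mt2 begin at 0.58 and 0.77, to the right of those of all other genes plotted.

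The copper and iron lists held no gene that passed. Among all tested rows 14.8% had an unadjusted limma p below 0.05, 6.27% higher and 8.51% lower. Of 13 measured copper-handling genes 0 passed in limma, with 2 at an unadjusted p below 0.05 and a median change of 0.03; the smallest p-values were those of the metalloreductase Steap4 at 0.21 ± 0.06 (SE) and the copper chaperone Cox17 at 0.19 ± 0.07. Of 14 iron-handling genes 0 passed, with 3 at an unadjusted p below 0.05 and a median of -0.04. There the mitochondrial iron importer Slc25a37 differed by -0.31 ± 0.06 and Hfe, a regulator of iron uptake, by 0.29 ± 0.07 (SE, limma adjusted p = 0.0845 and 0.105). Slc25a37 was called lower without the dimmest 40% of rows, with a trended and robust prior and at an adjusted p below 0.10, and Hfe was called higher in the first of these.

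Genes of the other known routes to metallothionein induction were counted in the same fit. Over all rows 0.519% were called higher and 0.441% lower. At an unadjusted limma p below 0.05 the shares were 6.27% and 8.51%. Of 17 NRF2 targets, genes of the oxidant response, 2 were higher and 2 lower at an unadjusted limma p below 0.05. After adjustment 1 rose and 16 did not pass, with 8 above 0, 9 below and a median of -0.03. The gene that rose was Slc7a11, the cystine importer, in a row that is among the dimmest 40% tested. It stood at 4.90, 4.96 and 4.93 in wild-type and 5.64, 5.71 and 5.85 in transgenic hearts. The change was 0.80 ± 0.07 (SE, limma adjusted p = 0.00286). Abcc1, an export pump for glutathione conjugates, was next at -0.26 ± 0.06 (limma adjusted p = 0.114). Abcc1 was called lower without the dimmest 40% of rows and with a trended and robust prior.

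Of 15 glucocorticoid-induced genes 4 were higher and 0 lower at an unadjusted limma p below 0.05. After adjustment 1 rose and 14 did not pass, with 12 above 0 and a median of 0.11. Lcn2, which encodes an iron-binding protein and belongs to the acute phase list as well, was the gene that rose. It stood at 7.29, 7.21 and 7.68 in wild-type and 8.12, 8.02 and 8.02 in transgenic hearts, a change of 0.66 ± 0.12 (SE, limma adjusted p = 0.0474). The call depended on the arrays used: it remained without wild-type replicate 3 and was lost in the other 5 fits that left out an array (limma adjusted p of 0.109 to 0.153). Ddit4, a stress-induced inhibitor of mTOR signalling, differed by 0.41 ± 0.11 (SE, limma adjusted p = 0.157).

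Of 18 genes of interleukin 6 signalling and the STAT3 acute phase response 9 were higher and 1 lower at an unadjusted limma p below 0.05. After adjustment 2 rose and 16 did not pass, with 15 above 0 and a median of 0.18. Serpina3n, a secreted protease inhibitor, stood at 10.61, 10.36 and 10.40 in wild-type and at 11.82, 11.80 and 11.81 in transgenic hearts. Lcn2 was the other gene that rose. Timp1, at 0.62 ± 0.12 (SE, limma adjusted p = 0.0705), was called higher in some alternatives. These were median centring, the filter on dim rows, the trended and robust prior, array weights, the 0.10 threshold and leaving out wild-type replicate 1. Osmr, at 0.22 ± 0.06 (SE), was called higher with the trended and robust prior. Summed over the 18 genes, log2 values lay between 135.20 and 137.20 in wild-type and between 139.80 and 141.56 in transgenic hearts, without overlap. Without the 2 called genes, which were picked from these same data, the sums lay at 117.12 to 119.30 and 119.98 to 121.62. The sums of the 15 glucocorticoid-induced genes lay between 134.80 and 135.73 in wild-type and between 136.42 and 137.53 in transgenic hearts. Without Lcn2 the groups overlapped narrowly, at 127.12 to 128.52 and 128.40 to 129.41, so the separation needed Lcn2. Lcn2 was not the only gene of the list with a higher transgenic mean, as 12 of the 15 changes were above 0. The sums of the NRF2 targets overlapped with or without Slc7a11. How often sums of other lists of such size separate was not tested, so the sums do not rank these lists. The part of these lists in the change of Mt1 and Mt2 was not tested.

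**Figure D4:**
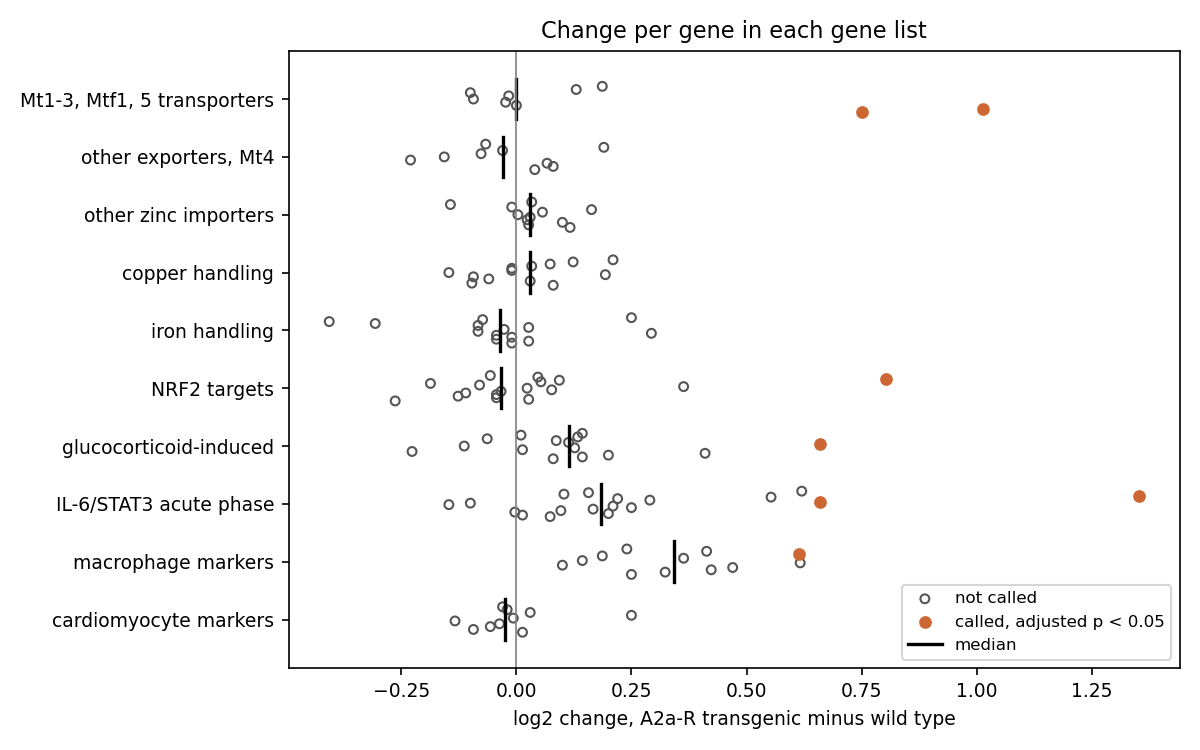
Log2 change (A2a-R transgenic minus wild type) of every measured gene in 10 lists; open circles did not pass, filled circles passed a limma adjusted p below 0.05, and the black bar is the list's median. The zinc, copper, iron and NRF2 medians lie between -0.04 and 0.03, the acute phase median at 0.18 and the macrophage median at 0.34.

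The hearts were also compared by markers of their cell types. All 12 macrophage markers lay above 0. Of these, 1 was called (Lgals3, the lectin galectin-3, at 0.61 ± 0.06 SE, limma adjusted p = 0.00423), beside 0.519% of all rows called higher. At an unadjusted limma p below 0.05, 9 were higher, beside 6.27% of all rows. The summed log2 values of the 12 markers lay between 100.26 and 101.90 in wild-type and between 104.80 and 106.30 in transgenic hearts. Without Lgals3 the sums did not overlap either, at 92.68 to 94.38 and 96.65 to 98.20. Their part in the change of Mt1 and Mt2 was not tested. The 10 cardiomyocyte markers that define the labelled tissue summed to between 135.22 and 135.72 in wild-type hearts and between 135.28 and 135.81 in transgenic hearts, with 0 called. Sums of atrial, fibroblast, endothelial, neutrophil, lymphocyte, adipocyte and liver markers overlapped between the genotypes, with 0 called in each. Those of 7 smooth muscle and pericyte markers lay at 63.06 to 63.54 and 63.98 to 64.37, but this rested on Acta2, called at 0.73 ± 0.09 (SE, limma adjusted p = 0.0106). Without Acta2 the sums overlapped, at 52.33 to 52.80 and 52.51 to 52.68. Of the remaining markers, Myh11, Cnn1 and Cspg4 differed by -0.06, -0.07 and -0.02. Pdgfrb, Tagln and Rgs5 differed by 0.10, 0.08 and 0.04. The call of Acta2 was lost without wild-type replicate 1 or 3 (limma adjusted p = 0.0594 and 0.0565). Of the liver markers, Alb had means of 5.21 and 5.22, and 4 of the 5 measured were in the dimmest 40% of rows. RMA gives no value of 0, so no marker was listed at 0.

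Likeness to Mt1 and Mt2 was measured as the root mean square difference between centred log2 values over the 6 arrays, for 19937 other genes. It is dominated by the difference between genotypes and is given as a description. The genes closest to Mt1 were the chromatin factor Msl3 (0.04), the haem lyase Hccs (0.06), the secreted resistin-like Retnla (0.07), the nucleotide synthesis enzyme Prps2 (0.09) and the chemokine Ccl6 (0.09). Those closest to Mt2 were the orphan receptor Gpr158 (0.09), the water channel Aqp4 (0.11), 2610028H24Rik (0.12), Hccs (0.13) and the monocarboxylate transporter Slc16a7 (0.14). Mt2 itself was at 0.15 from Mt1, the 44th in that order. Msl3, Hccs and Prps2 belong to a stretch of neighbouring X-linked genes that were higher in the transgenic hearts. The groups thus differed in that stretch as well as in the transgene, and for Mt1 and Mt2 the 2 cannot be told apart.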

How the data were processed

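RNA was measured in hearts of 6 mice, 3 per group, each on 1 array. Per the labels' protocols, 100 ng of Trizol-extracted total RNA gave the biotin-labelled cDNA. The authors' deposited values are log2 expression; the submitters' processing notes name RMA, which corrects background, quantile-normalises and summarises probes, and Partek. Settings and genome build were not given in the sources used here. Because of the quantile step a global change in RNA amount is not visible.

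Symbols came from the platform annotation of the value table. Of 28853 rows, 21789 had exactly 1 symbol and were tested, 1621 had several and 5443 none. All 9 members' symbols equalled those in RefSeq by Entrez identifier. All tested rows were fitted with limma 3.58.1 in R 4.3.3 (lmFit, eBayes, no covariate), with Benjamini-Hochberg adjustment and a threshold of 0.05. Intervals are 95% intervals of that fit. The code was tested on simulated data. The number of arrays limits the precision, with a median SE of 0.0731 for a log2 difference.

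The members and gene lists were chosen with earlier results of these data known. Named genes were the members, the 3 smallest p-values of each zinc transporter list and at most 2 of each other pathway list. The 5 nearest profiles of Mt1 and of Mt2 were also named. Mt4, Bbs2, Nup93, Timp1, Osmr, Lgals3 and Alb were named after their values were seen. So were the smooth muscle and pericyte markers and the X-linked genes at the end. The comparison of Mt2 with Mt1 within arrays and the list sums without called genes were added after seeing the data. Arrays correlated at r = 0.9958 to 0.9973 within and 0.9926 to 0.9957 between genotypes across rows, which are not replicates. The transcript of the receptor transgene was not analysed here. Alternatives were a replicate block, renormalization, median centring, a filter on dim rows, other variance priors, array weights, a threshold of 0.10, all rows, the mean of a gene's rows and leaving out each array.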

Additional observations from a re-analysis of the deposited data

How the results depend on the processing

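Mt1 and Mt2 were called, and the other 7 members not called, in all 15 alternatives in which a gene could be fitted (14 for Slc30a2 and Slc39a8, which the filter on dim rows removes). Log2 changes ranged from 0.68 to 0.79 for Mt1 and from 0.89 to 1.11 for Mt2. The call count of the other 20 zinc genes was 0 in every alternative. Signs changed in at least 1 alternative for Mtf1, Slc30a2 and Slc39a10, and Mt3 moved to either side of 0; none of these was called. The count over all rows (209) was 97 with the replicate block, 493 without the dimmest 40% of rows, 579 with a trended and robust prior and 476 at an adjusted p below 0.10. It ran from 84 to 147 over the 6 fits without 1 array: leaving out wild-type replicate 1 gave 124, wild-type replicate 2 gave 84, wild-type replicate 3 gave 92, transgenic replicate 2 gave 116 and transgenic replicate 3 gave 121. Centring arrays on their medians turned the split of 113 higher and 96 lower into 129 and 147. Calls in the copper, iron, glucocorticoid, STAT3 and NRF2 lists (3) became 6 without dim rows, 7 with the trended prior and 5 at the 0.10 threshold, and 2 to 3 without 1 array. The filter and the threshold act through the rows tested and the limit; for the prior the cause was not tested. Deviations of same-numbered hearts correlated at 0.16, -0.01 and -0.10, and 2 of 6 hearts correlated best with their own number. These values gave no sign of pairing by replicate number, but 3 hearts per group are too few to settle it. With the replicate block, Mt1 and Mt2 kept limma adjusted p of 0.0223 and 0.0314, and Lcn2 had 0.0859.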

Other observations

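Of the genes nearest to Mt1, Msl3, Hccs and Prps2 lie close together on the X chromosome in the RefSeq gene order. A window of 17 protein-coding genes around them was chosen after their values were seen, so its count is a description. Over all tested rows 0.519% were called higher and 0.441% lower. In the window 15 genes were measured and 6 were higher at a limma adjusted p below 0.05, with 0 lower. These were Tlr8 at 1.05 ± 0.07, Tlr7 at 1.08 ± 0.11, Prps2 at 0.90 ± 0.07, Msl3 at 0.74 ± 0.06, Arhgap6 at 0.57 ± 0.07 and Hccs at 0.84 ± 0.06 (log2 change ± SE), while Frmpd4 at 0.21 ± 0.08 and Amelx at -0.02 ± 0.09 between them did not pass. The 6 genes before Tlr8, from Ofd1 to Tmsb4x, differed by -0.09 to 0.13. Mid1, the measured gene after Hccs, differed by 0.55 ± 0.11 (limma adjusted p = 0.0818), close to the value of Arhgap6, so these data do not place the end of the stretch at Hccs. Tlr7 and Tlr8 are receptors for single-stranded RNA. Mt1 and Mt2 lie on chromosome 8, outside this stretch, and whether the 2 sets of changes are related was not tested. Whether the groups differ in genetic background at this stretch, or in the number of copies of these genes, was not tested either, so a difference of that kind and the transgene cannot be told apart for any change between these groups.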
